A study of Mus musculus with 4 samples.

Results

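Ripk1, Ripk3, Mlkl, Gsdmd, Casp1, Casp4, Casp8, Pycard and Casp12 encode the core machinery of pyroptosis and necroptosis together with caspase-12. These 9 genes of the 32285 listed were taken by symbol, with no threshold on their measured values although earlier results of these data were known, and their UMI counts were followed in spatial transcriptomes of normal and ischemic mouse kidney. The tissue came from the left kidneys of wild type male C57BL/6J mice aged 7 to 8 weeks. Ischemic kidneys had 30 min of bilateral ischemia and 24 h of reperfusion, and normal kidneys had neither. Sections of 10 µm were placed on 1 Visium slide, on which each barcoded spot captures the RNA of a small patch of tissue that can hold several cells of different types. There were 2 normal and 2 ischemic sections with 2401 to 2682 tissue spots each. The 4 capture areas of the slide held 1 section each, with the ischemic sections in the first 2 areas and the normal sections in the last 2, so capture area and condition cannot be told apart. The labels do not tie sections to animals, and in the study's design a mouse gave more than 1 section. The 2 sections of a group may therefore come from 1 mouse, and the p-values of whole sections measure only the spread between these sections. Tests by zone used 1 estimate of the spread, shared over all sums per section and zone. Where section was a block, that spread was between zones within sections. Zones of a section are not independent of each other, so none of these p-values measures a spread between mice.

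Pyroptosis is a lytic death in which inflammasome sensors, through the adaptor encoded by Pycard (ASC), activate caspase-1, or in which cytosolic lipopolysaccharide activates caspase-11, the product of mouse Casp4. Both caspases cut gasdermin D (Gsdmd), whose freed end forms pores in the plasma membrane. Necroptosis is a lytic death in which RIPK1 and RIPK3 assemble downstream of death receptors and RIPK3 phosphorylates MLKL, which then disrupts the membrane, while caspase-8 restrains this route by cutting the kinases. Proximal tubules of the outer stripe of the outer medulla are the segment most injured when blood flow to the kidney is interrupted and restored.

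Sections held 25957128 to 44528078 UMIs, with a median of 8656 to 16162.5 per spot. Every spot was assigned to cortex, outer stripe, inner stripe, inner medulla or pelvis from marker lists, and the cortex list itself was at 2693 and 2808 CPM (counts scaled to a fixed library total) in the normal sections against 596 and 555 CPM in the ischemic sections. The outer stripe list was at 1866 and 1605 CPM in normal and 296 and 306 CPM in ischemic sections. The pelvis list was at 202 and 530 CPM in normal and 35.2 and 64.5 CPM in ischemic sections, and its zone was capped at about the 5% of spots scored highest, so these zones of ischemic sections rest on fewer marker counts. The inner medulla list went the other way, at 1227 and 1540 CPM in normal against 3287 and 3443 CPM in ischemic sections, and its zone took 5.12% and 8.35% of normal and 12.2% and 11.5% of ischemic spots. A list of 3 injured tubule genes was at 6.27 and 10.7 CPM in normal and at 4689 and 5281 CPM in ischemic sections. Of all values below, CPM with no other note are scaled by TMM (trimmed mean of M values) within the whole-section or the zone sums.

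Ripk3 and Mlkl were several-fold higher in the ischemic sections, Casp8 and Casp4 were higher to a lesser extent, Pycard was slightly higher, and Casp1 was lower. In whole sections, 6 of the 9 genes passed the test (edgeR quasi-likelihood test, Benjamini-Hochberg adjusted p under 0.05 over 15305 genes), 5 of them higher and 1 lower. Of all genes tested, 60.6% passed in either direction, 4737 higher (31.0%) and 4542 lower (29.7%), so a count of 6 in 9 lay near the share of all genes. The median log2 fold change was 0.47 over the 9 genes and 0.04 over all genes. With scaling by library size only, the median over all genes moved to 0.31 and the share of passing genes that were higher went from 51.1% to 67.0%.

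**Figure D1:**
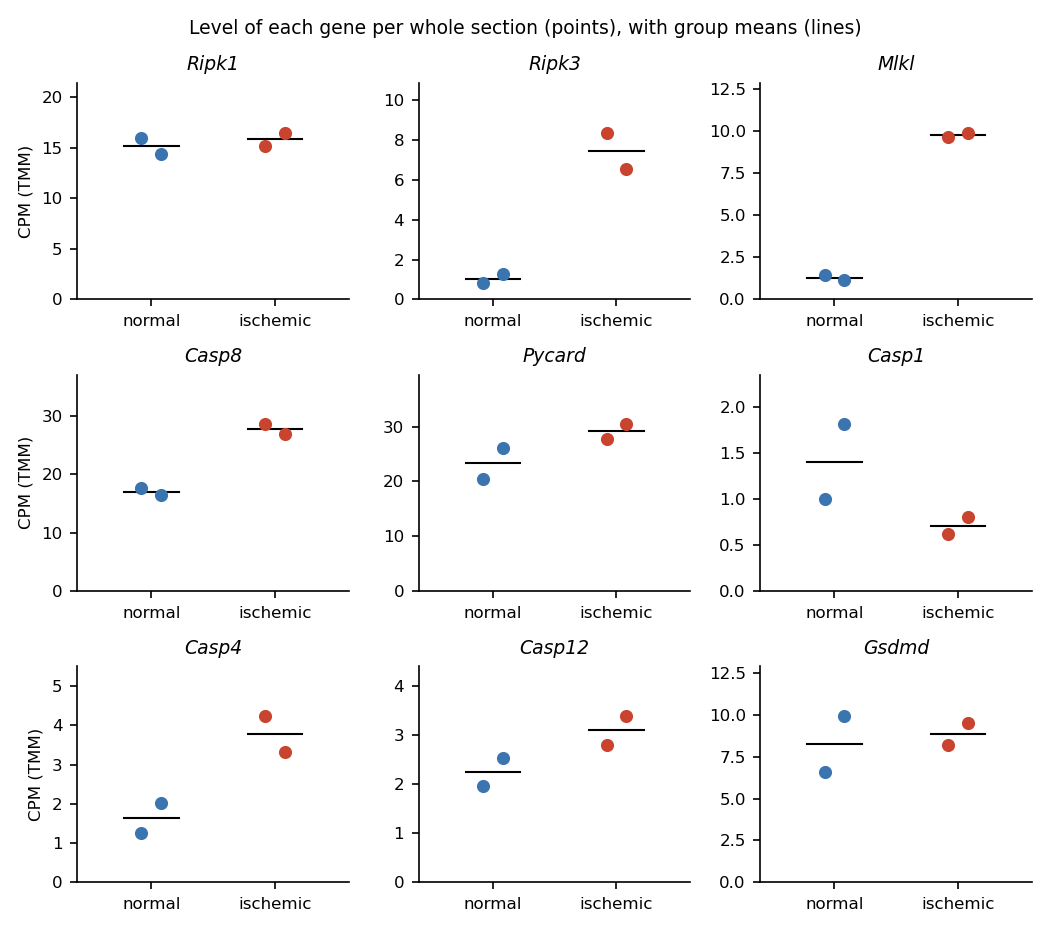
Level of each of the 9 genes in whole sections. Each panel shows TMM-scaled CPM (vertical axis, from 0) for the 2 normal sections (blue) and the 2 ischemic sections (red), with lines at the group means. Ripk3 stood at 0.813 and 1.27 CPM in normal against 8.36 and 6.56 CPM in ischemic sections, and the groups of Ripk1 and Gsdmd overlapped.

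The necroptosis kinase and its substrate showed the largest changes among the 9 genes. Ripk3 (chromosome 14, 55784995 to 55788865, minus strand, GRCm38) encodes the kinase that phosphorylates MLKL. Its level was 0.813 and 1.27 CPM in the normal sections and 8.36 and 6.56 CPM in the ischemic sections, from 30, 35, 284 and 188 counts. Both ischemic sections lay far above both normal sections, with a log2 fold change of 2.87 ± 0.25 (SE, n = 2 against 2; edgeR, adjusted p = 1.48e-05). Mlkl (chromosome 8, 111311797 to 111338177, minus strand) encodes the membrane-disrupting effector. Its level was 1.44 and 1.12 CPM in normal and 9.66 and 9.88 CPM in ischemic sections, a log2 fold change of 2.91 ± 0.19 (edgeR, adjusted p = 2.38e-06). The groups did not overlap, and the 2 ischemic sections were nearly equal. Across the alternatives tried, the log2 fold change ranged from 2.57 to 3.17 for Ripk3 and from 2.73 to 3.21 for Mlkl, past the threshold in each. In bulk sums of spots, a change in the number of cells of a type and a change in RNA per cell cannot be told apart.

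The 250 bases upstream of the annotated starts of these genes are shown because both rose together (RefSeq promoter windows on GRCm38.p6, 5′ to 3′ on the gene's strand, with CG dinucleotides in capitals).
Ripk3, chr14:55788858-55789107, minus strand: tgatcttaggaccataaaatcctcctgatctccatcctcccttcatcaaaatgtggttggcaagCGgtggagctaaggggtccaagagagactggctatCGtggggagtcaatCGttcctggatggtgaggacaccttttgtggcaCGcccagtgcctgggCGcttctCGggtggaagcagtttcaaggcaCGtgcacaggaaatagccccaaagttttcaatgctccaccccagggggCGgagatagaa
Mlkl, chr8:111338206-111338455, minus strand: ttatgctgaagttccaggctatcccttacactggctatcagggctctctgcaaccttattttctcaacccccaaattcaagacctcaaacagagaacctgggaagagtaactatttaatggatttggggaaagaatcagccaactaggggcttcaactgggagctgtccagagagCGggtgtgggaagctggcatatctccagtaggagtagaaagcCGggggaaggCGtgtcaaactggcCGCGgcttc
They hold 8 and 5 CG dinucleotides, beside a median of 6 over 32851 windows of the same length. Neither holds the letters GAAA, any 2 bases and GAAA (ISRE, the interferon response element), TTCNNNGAA (GAS, bound by STAT factors), the NF-kB consensus or TGANTCA (AP-1) on either strand. Those letters occur in 2.98%, 7.02%, 3.90% and 6.75% of all windows. Of the 9 genes, 8 had a window, 10 windows in all, and the only matches were GAS letters, 2 in the window of Casp12 and 2 in the second window of Ripk1, and 2 overlapping NF-kB matches in each window of Casp4. A match or its absence is a description of these letters only.

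Ripk1, the kinase upstream of RIPK3 that also scaffolds survival signaling from the TNF receptor, did not pass the test. Its level was 16.0 and 14.3 CPM in normal and 15.2 and 16.5 CPM in ischemic sections, so the groups overlapped, and the log2 fold change was 0.06 ± 0.11 (edgeR, adjusted p = 0.664). Part of Ripk1 (chromosome 13, 34002363 to 34037147, plus strand) overlaps Serpinb6a on the other strand. Casp8 (chromosome 1, 58795374 to 58847503, plus strand), the initiator caspase of death receptors that restrains necroptosis, was higher. Its level was 17.7 and 16.4 CPM in normal and 28.6 and 26.9 CPM in ischemic sections, without overlap, at a log2 fold change of 0.70 ± 0.10 (edgeR, adjusted p = 0.000241). It passed under every alternative, with a log2 fold change of 0.62 to 0.98.

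The inflammatory caspases Casp1, Casp4 and Casp12 are the only 3 protein-coding genes in 74.5 kb of the plus strand of chromosome 9, and their levels went different ways. Casp4 (5308828 to 5336783), the mouse caspase-11 gene, was at 1.25 and 2.03 CPM in normal and 4.24 and 3.32 CPM in ischemic sections. It was higher in both ischemic sections, at a log2 fold change of 1.23 ± 0.27 (edgeR, adjusted p = 0.00376), and stayed past the threshold under every alternative, with adjusted p at most 0.0275. Casp1 (5298517 to 5307265), which processes interleukin-1β and interleukin-18, was at 1.00 and 1.81 CPM in normal and 0.618 and 0.803 CPM in ischemic sections. These levels rest on 37, 50, 21 and 23 counts. The log2 fold change was -0.97 ± 0.37 (edgeR, adjusted p = 0.0467), a call that was lost with DESeq2 (adjusted p = 0.0988), with library size only (0.195), without pelvis spots (0.0596) and without normal section 2, either ischemic section or the spots with a neutrophil count (0.0852 to 0.233). Casp12 (5345430 to 5373032), a caspase of the endoplasmic reticulum, was at 1.95 and 2.54 CPM in normal and 2.80 and 3.39 CPM in ischemic sections. The sections did not overlap, but the log2 fold change of 0.47 ± 0.23 did not pass (edgeR, adjusted p = 0.107). It did pass without the pelvis spots, at 0.66 (adjusted p = 0.0308), and without normal section 2, at 0.63 (adjusted p = 0.0166).

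The upstream windows of the adjacent Casp1 and Casp4 are shown because these neighbors moved in opposite directions (same source and notation as above).
Casp1, chr9:5298267-5298516, plus strand: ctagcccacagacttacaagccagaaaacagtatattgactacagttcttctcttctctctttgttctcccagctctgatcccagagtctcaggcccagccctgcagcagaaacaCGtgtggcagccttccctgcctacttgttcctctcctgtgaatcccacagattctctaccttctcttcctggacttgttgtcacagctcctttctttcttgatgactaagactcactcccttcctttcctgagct
Casp4, chr9:5308599-5308848, plus strand: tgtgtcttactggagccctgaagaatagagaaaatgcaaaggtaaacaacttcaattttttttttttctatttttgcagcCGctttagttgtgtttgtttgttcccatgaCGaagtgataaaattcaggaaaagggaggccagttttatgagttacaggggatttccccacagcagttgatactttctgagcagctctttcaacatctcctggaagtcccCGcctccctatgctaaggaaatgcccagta
The Casp1 window holds 1 CG dinucleotide and the Casp4 window 3, and the Casp1 window holds none of the 4 motifs. The Casp4 window holds 2 overlapping matches to the NF-kB consensus and none of the other 3 motifs.

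Pycard and Gsdmd, the adaptor and the pore-forming substrate of pyroptosis, changed little in whole sections. Pycard (chromosome 7, 127989708 to 127993867, minus strand) was at 20.5 and 26.1 CPM in normal and 27.8 and 30.4 CPM in ischemic sections. The sections did not overlap, and the log2 fold change of 0.33 ± 0.12 was just past the threshold (edgeR, adjusted p = 0.0457). This call was lost with RLE size factors (adjusted p = 0.0587), with DESeq2 (0.152), without normal section 1 (0.0947) and without ischemic section 1 or 2 (0.0743 and 0.239). Gsdmd (chromosome 15, 75862327 to 75867408, plus strand) was at 6.61 and 9.93 CPM in normal and 8.21 and 9.49 CPM in ischemic sections. The groups overlapped, with a log2 fold change of 0.11 ± 0.19 (edgeR, adjusted p = 0.65). Normal section 2 lay above normal section 1, and without it the log2 fold change was 0.39 (adjusted p = 0.00922), whereas without normal section 1 it was -0.16 (adjusted p = 0.296).

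Leukocyte markers moved with the condition. Counts of 8 neutrophil genes summed to 2.11 and 3.40 CPM in normal sections, with Ly6g at 0, and to 186 CPM in each ischemic section. All CPM in this paragraph are without TMM scaling. A list of 6 monocyte genes was at 26.1 and 35.6 CPM in normal and 129 and 127 CPM in ischemic sections, and 7 macrophage genes were at 153 and 214 against 155 CPM in each. The 6 T cell genes were at 16.7 and 34.1 CPM in normal and 2.51 and 2.77 CPM in ischemic sections, and the 5 NK cell genes at 5.61 and 8.17 against 0.225 and 0.501 CPM. Lists of red blood cell genes (8874 and 9027 against 763 and 1614 CPM) and adipocyte genes (36.6 and 17.9 against 3.86 and 3.51 CPM) were lower in ischemic sections too, and fibroblast genes (134 and 215 against 289 and 298 CPM) and endothelial genes (232 and 314 against 362 and 371 CPM) were higher. Spots without any neutrophil count made up 97.1% of each normal section and 50.1% and 58.9% of the ischemic sections. Within these spots alone, the log2 fold change was 2.64 for Ripk3, 2.81 for Mlkl, 0.67 for Casp8 and 1.20 for Casp4 (edgeR, adjusted p at most 0.00381). In ischemic sections 1 and 2 they were shallower than spots with a count (median 10041 against 13391 and 7644 against 10857 UMIs), so some may still hold neutrophils. Spots with and without a neutrophil count held Ripk3 at 10.2 against 7.75 and 8.45 against 6.08 CPM, and Mlkl at 11.6 against 9.17 and 11.7 against 10.1 CPM. Casp4 (4.93 against 4.25 and 3.36 against 3.95 CPM) and Casp8 (30.8 against 31.8 and 29.9 against 29.5 CPM) differed in direction between the sections. In ischemic sections 1 and 2, spots with and without a monocyte count held Ripk3 at 9.57 against 8.02 and 8.44 against 4.75 CPM. Mlkl was at 11.7 against 7.55 and 11.5 against 9.74 CPM, and Casp4 at 5.32 against 2.83 and 4.33 against 2.26 CPM. Casp8 went the other way in ischemic section 1 (30.1 against 34.2 CPM) and was at 30.0 against 29.2 CPM in ischemic section 2. The part of these other cell types in the levels of the 9 genes was not tested.

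Counts of these genes were sparse per spot. After each spot was thinned to 2000 UMIs, with 48 to 150 shallower spots left out per section, Ripk3 was detected in 0.117% (95% exact interval 0.0241 to 0.341) and 0.395% (0.190 to 0.725) of normal spots. In the ischemic sections it was detected in 1.79% (1.29 to 2.42) and 2.03% (1.52 to 2.67) of spots. Mlkl was detected in 0.273% and 0.197% of normal and 1.92% and 2.47% of ischemic spots, and Casp4 in 0.195% and 0.316% of normal and 1.11% and 0.917% of ischemic spots. For Ripk3 and Mlkl the intervals of the ischemic sections lay above those of the normal sections, whereas for Casp4 those of ischemic section 2 (0.582 to 1.37) and normal section 2 (0.137 to 0.622) overlapped. For 7 of the 9 genes, all but Gsdmd and Casp1, both ischemic shares were above both normal shares, though not all by more than their intervals. The same count was not made over all genes, so it shows nothing particular to these 9. Without thinning, Ripk3 was found in 1.15% and 1.31% of normal and 10.5% and 6.54% of ischemic spots. The intervals cover counting error only.

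**Figure D2:**
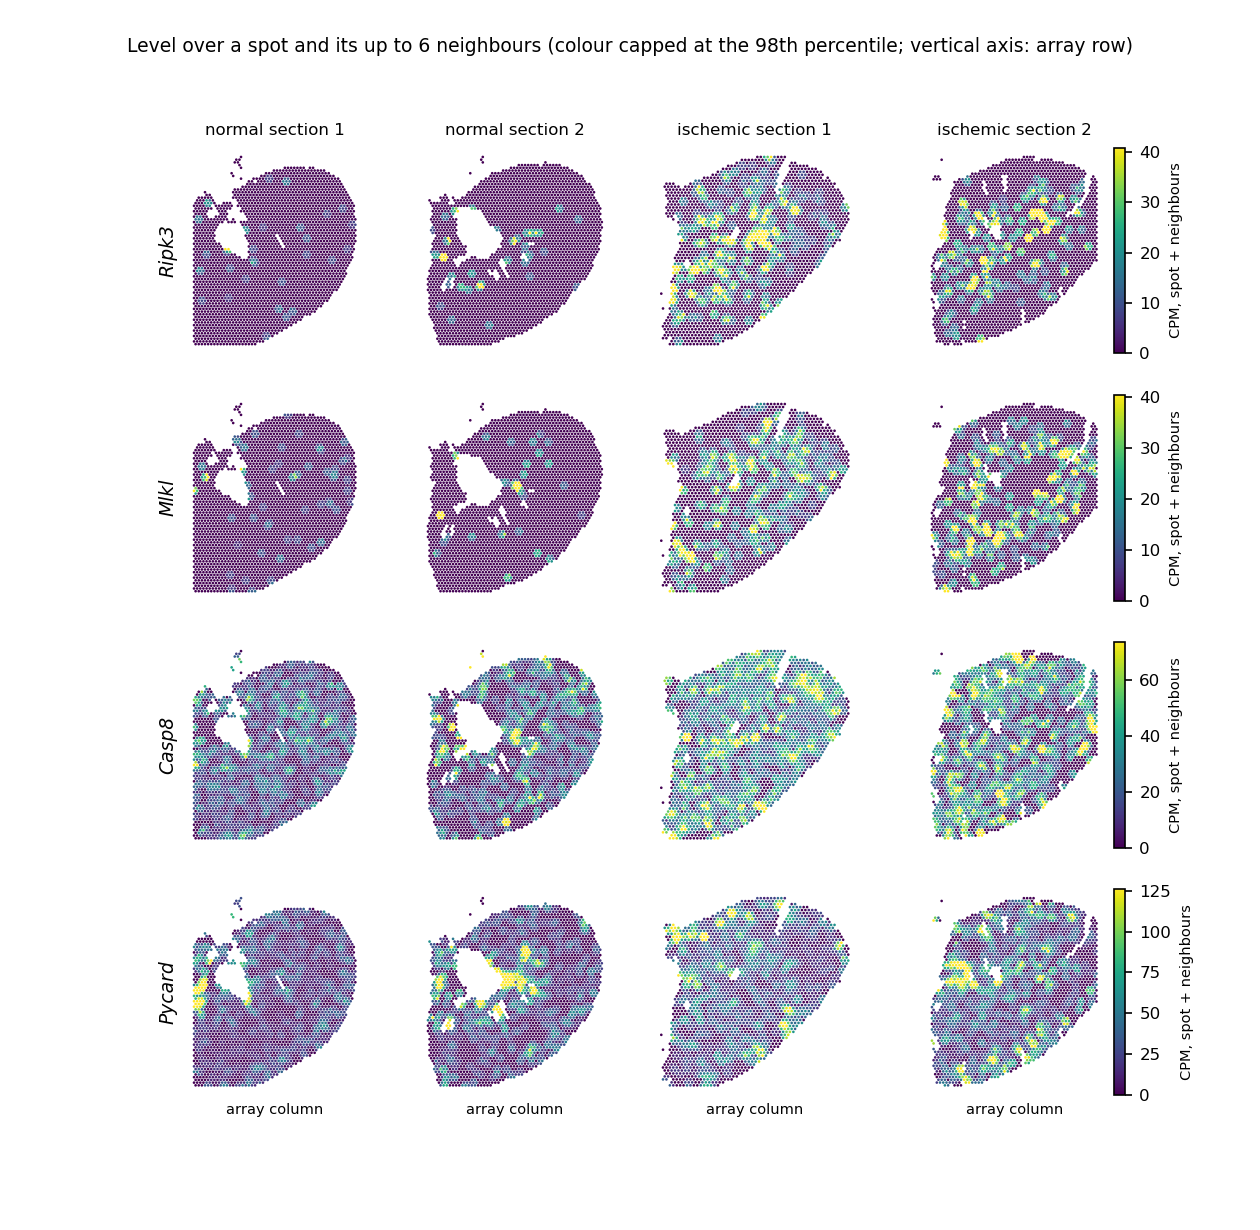
Ripk3, Mlkl, Casp8 and Pycard over the 4 sections. Each dot is a spot at its array column and row, and color gives the CPM of the spot pooled with its up to 6 neighbors, on 1 scale per gene. Ripk3 and Mlkl were sparse in the normal sections and present in every zone of the ischemic sections. By zone, Mlkl was highest in the outer stripe and Ripk3 lowest in the cortex of each ischemic section, whereas Pycard was highest in the pelvis of each section.

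The rise of Ripk3 and Mlkl was present in all 5 zones. In cortex 4 of the 9 genes passed, beside 40.1% of the 14174 genes tested. The outer stripe also had 4 (56.9% of all genes) and so did the inner stripe (48.2%). There were 3 such genes for the inner medulla (35.1%) and 2 for the pelvis (25.2%). Ripk3 and Mlkl passed in each zone, and the remaining calls differed from zone to zone. With ischemic section 1 left out, all calls of these genes in the inner medulla were lost, and with normal section 2 left out only that of Mlkl stayed. All of their calls in the pelvis were lost without either ischemic section or normal section 1. Without an ischemic section, fewer genes passed in these 2 zones among all genes too.

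Mlkl was highest in the outer stripe of ischemic sections. There it was at 0.777 and 1.41 CPM in normal and 16.9 and 18.3 CPM in ischemic sections, from 8, 11, 164 and 151 counts. That is a log2 fold change of 4.03 ± 0.33 (edgeR, adjusted p = 5.59e-09). In cortex Mlkl was at 2.07 and 0.667 CPM in normal and 5.89 and 4.97 CPM in ischemic sections, a log2 fold change of 1.88 ± 0.32 (edgeR, adjusted p = 0.000118). The normal cortices differed from each other by more than the ischemic cortices did, and the log2 fold change was 2.91 without normal section 1 and 1.40 without normal section 2, past the threshold in both. Its log2 fold changes elsewhere were 2.71 (inner stripe), 2.52 (inner medulla, 3.13 without normal section 2) and 1.59 (pelvis).

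Ripk3 rose by 3.17 ± 0.37 on the log2 scale in the outer stripe (edgeR, adjusted p = 6.58e-07). Its level there was 0.874 and 1.15 CPM in normal and 10.3 and 7.88 CPM in ischemic sections. In cortex it was at 0.646 and 0.572 CPM in normal and only 4.95 and 2.54 CPM in ischemic sections (log2 fold change 2.60 ± 0.42). In the inner stripe it was at 0.863 and 2.42 against 11.6 and 11.04 CPM (2.92 ± 0.44), a value that was 2.24 without normal section 1 and 3.68 without normal section 2, past the threshold in both. Within each zone both ischemic sections lay above both normal sections, and the cortex was the lowest zone for Ripk3 in each section. In the inner medulla and the pelvis the log2 fold changes were 1.96 and 1.76, from 3 to 8 counts per normal section.

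Casp8 was higher in cortex and outer stripe. In cortex it was at 17.3 and 19.3 CPM in normal and 35.9 and 33.6 CPM in ischemic sections (log2 fold change 0.93 ± 0.15; edgeR, adjusted p = 4.66e-05). In the outer stripe it was at 24.5 and 19.95 CPM in normal and 33.3 and 34.1 CPM in ischemic sections (0.59 ± 0.15, adjusted p = 0.00223). Within the other 3 zones Casp8 did not pass, with log2 fold changes of 0.20 to 0.54. It did pass in the inner stripe with library size only (adjusted p = 0.00239), with no filter (0.0406), without normal section 1 (0.0119) and with zones from each spot alone (0.0223), and in the inner medulla with library size only (0.0325) and zones from each spot alone (0.0208).

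Casp4 passed in the outer stripe, at 0.680 and 1.41 CPM in normal and 4.23 and 2.55 CPM in ischemic sections (log2 fold change 1.75 ± 0.43; edgeR, adjusted p = 0.00179), though not without ischemic section 1 (adjusted p = 0.102), and the value was 1.16 without normal section 1 and 2.30 without normal section 2. It also passed in the inner stripe, at 1.18 ± 0.43, a call lost without either ischemic section or normal section 1. In cortex it passed under 3 alternatives, without normal section 2 (adjusted p = 0.0334), with a separate fit (0.031) and with only spots of well-separated zone scores (0.044). Casp12 passed in the inner stripe, at 1.29 and 2.08 CPM in normal and 5.78 and 5.52 CPM in ischemic sections (1.80 ± 0.41; edgeR, adjusted p = 0.00125), from 6, 6, 31 and 29 counts. With zones assigned from each spot without its neighbors, this fell to 0.66 (adjusted p = 0.265), and with library size only Casp12 also passed in the outer stripe (adjusted p = 0.0214). Casp1 did not pass in any zone, at 1 to 19 counts per section and zone. All 5 of its log2 fold changes were below 0, from -1.87 to -0.61, and only that of the inner medulla had an unadjusted p under 0.05 (edgeR, 0.0287). Without normal section 1 the cortex value passed, at -1.67 (adjusted p = 0.0256), and without normal section 2 it was 0.37, while the inner stripe value was 0.11 without ischemic section 1. Ripk1 and Gsdmd did not pass in any zone either. Under the alternatives, Ripk1 passed in the outer stripe with library size only (0.50, adjusted p = 0.0468) and Gsdmd in the inner stripe without normal section 2 (0.82, adjusted p = 0.0109).

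Pycard went up in cortex and down in the inner medulla. In cortex it was at 24.9 and 24.6 CPM in normal and 41.1 and 43.2 CPM in ischemic sections (log2 fold change 0.77 ± 0.16; edgeR, adjusted p = 0.000907). The groups were well apart, although without ischemic section 2 the adjusted p was 0.0552. In the inner medulla it was at 30.2 and 48.1 CPM in normal and 21.7 and 26.8 CPM in ischemic sections (-0.75 ± 0.24; edgeR, adjusted p = 0.0207). That call was lost in 7 alternatives, and with zones from each spot alone the log2 fold change was 0.04 (adjusted p = 0.887). In the inner stripe Pycard did not pass (0.51), but it did with library size only, with no filter, without normal section 2 and with the replicate block (adjusted p = 0.00152 to 0.0296). In the pelvis, its highest zone, Pycard was at 77.8 and 93.9 CPM in normal and 56.9 and 73.9 CPM in ischemic sections and did not pass. Its outer stripe log2 fold change of 0.12 ± 0.19 did not pass either (edgeR, adjusted p = 0.588). With zones from each spot alone that value was 0.44 and passed (edgeR, adjusted p = 0.048).

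**Figure D3:**
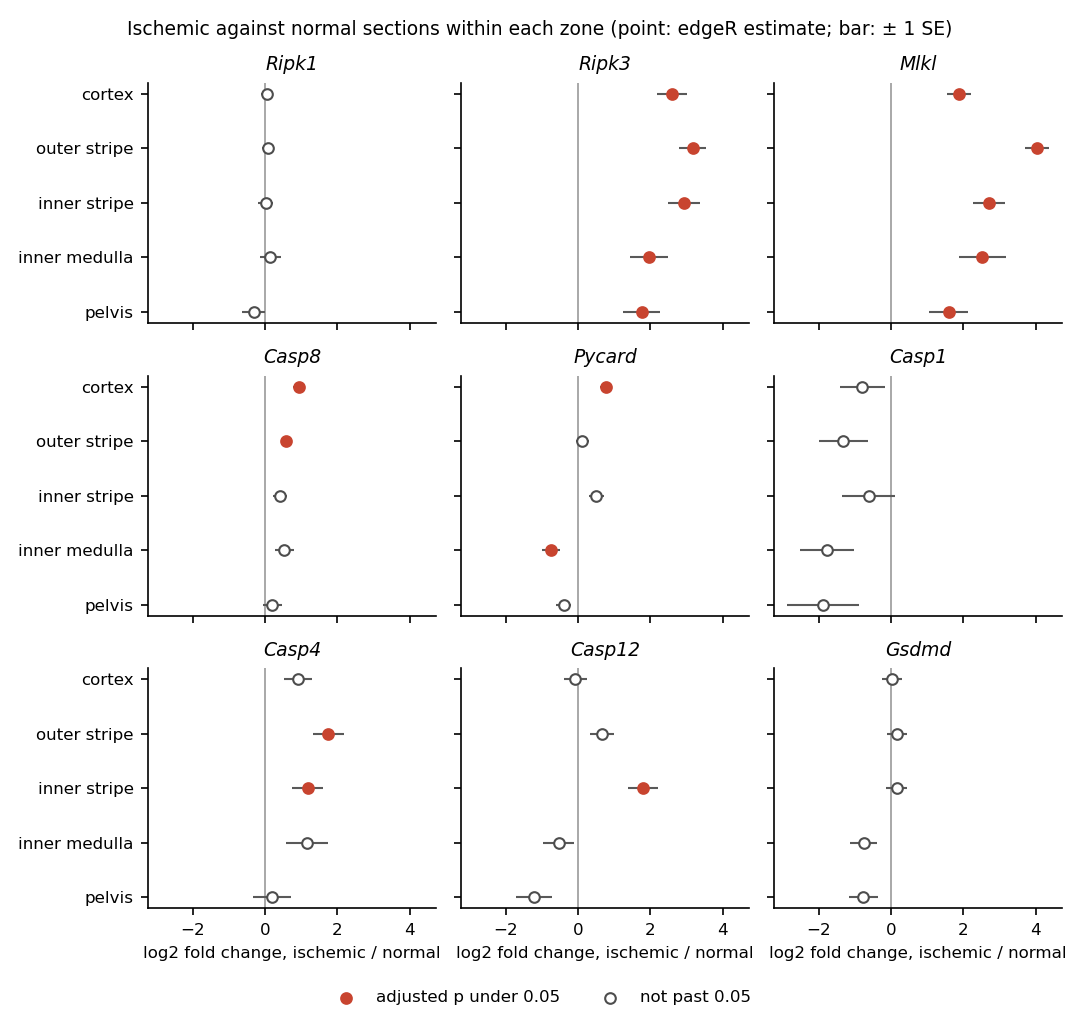
Log2 fold change of each gene between ischemic and normal sections within each zone (horizontal axis), as edgeR estimates with bars of 1 SE. Filled points have an adjusted p under 0.05. Ripk3 and Mlkl are filled in all 5 zones, from 1.59 to 4.03, and Ripk1 sits near 0 in the first 4.

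The effect of ischemia in the outer stripe differed from that in the cortex for 2 of the 9 genes (21.5% of 14174 genes passed this test). For Mlkl the outer stripe effect exceeded the cortex effect by 2.14 ± 0.51 on the log2 scale (edgeR interaction with section as a block, adjusted p = 0.00426). This difference was 3.07 without normal section 2. Without normal section 1, whose cortex held 32 of its counts against 7 in normal section 2, the difference was 0.59 (adjusted p = 0.637), and without either ischemic section the adjusted p was 0.0754 and 0.113. For Pycard the outer stripe effect was lower than the cortex effect, at -0.63 ± 0.18 (adjusted p = 0.0173), a call lost in 7 of 11 alternatives. The same difference was 0.60 ± 0.57 for Ripk3, 0.87 ± 0.51 for Casp4 and -0.34 ± 0.18 for Casp8, none of which passed. The Casp8 value was -0.13 without normal section 1 and -0.55 without normal section 2.

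Without injury, the inner medulla held more of several of these transcripts than the cortex. In the normal sections 5 genes were higher in the inner medulla than in the cortex (40.2% of all genes passed, 19.6% as higher). These were Casp1 (log2 difference 2.24 ± 0.64), Ripk3 (2.11 ± 0.67), Casp12 (1.76 ± 0.43), Gsdmd (1.56 ± 0.30) and Pycard (0.67 ± 0.17; edgeR with section as a block, adjusted p from 0.000329 to 0.0162). The Casp1 difference rests on 7 inner medulla counts in each normal section and the Ripk3 difference on 3 and 5. With zones from each spot alone, Pycard was at 0.23 (edgeR, adjusted p = 0.272) and Casp1 at 1.36 (0.0541), and neither passed. Without normal section 1 only Gsdmd (1.09) and Pycard (0.83) passed, with Casp1 at 1.05 (adjusted p = 0.326), Casp12 at 1.02 (0.214) and Ripk3 at 2.20 (0.0674). Without normal section 2 Casp1 (3.80), Casp12 (2.42) and Gsdmd (2.04) passed, with Pycard at 0.28 (adjusted p = 0.521) and Ripk3 at 2.09 (0.171). In the normal inner stripe 1 gene passed (29.2% of all genes), Gsdmd, at 1.10 ± 0.24 above cortex (adjusted p = 0.00177). Without normal section 2 this was 0.68 (adjusted p = 0.097), and Pycard passed instead. In the normal outer stripe 1 gene passed (22.8% of all genes), Pycard, at -0.58 ± 0.13 (edgeR, adjusted p = 0.00217). Without normal section 1 its value was -0.40 and this call was lost, and without normal section 2 Casp8 and Mlkl passed as well.

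Within ischemic sections, spots were ranked by Havcr1, which encodes the tubular injury marker KIM-1, and split into 3 equal groups per zone. Pycard was lower in spots with more Havcr1. In cortex it went from 57.2 through 35.0 to 26.6 CPM (not TMM-scaled) in ischemic section 1 and from 71.0 through 35.1 to 25.1 CPM in ischemic section 2. In the outer stripe it went from 28.2 through 15.7 to 11.2 CPM and from 28.5 through 15.4 to 11.3 CPM. Both sections and both zones gave the same order. In the outer stripe Gsdmd went from 11.2 through 7.71 to 4.31 CPM in ischemic section 1 and from 17.4 through 6.54 to 8.01 CPM in ischemic section 2, and Ripk3 from 14.8 through 9.42 to 6.60 CPM and from 11.1 through 5.56 to 6.82 CPM. Both were thus lowest in the middle group of section 2. In cortex Gsdmd went from 3.59 through 6.14 to 5.70 CPM and from 7.14 through 8.23 to 5.08 CPM, and Ripk3 from 4.15 through 4.55 to 5.05 CPM and from 2.52 through 1.90 to 2.67 CPM, so neither fell there in both sections. Mlkl in the outer stripe went from 15.9 through 13.7 to 18.3 CPM and from 9.79 through 19.6 to 20.5 CPM. In cortex the sections went opposite ways for Mlkl, from 4.15 through 4.78 to 7.24 CPM and from 5.46 through 5.06 to 3.74 CPM. Casp8 in cortex went from 23.5 through 33.9 to 41.0 CPM and from 29.0 through 25.3 to 37.9 CPM, highest in the highest Havcr1 group of each section. In the outer stripe it went from 30.0 through 33.1 to 31.5 CPM and from 24.5 through 40.5 to 30.3 CPM, highest in the middle group of each. The median depth rose with Havcr1, from 10458 to 14096.5 and from 6245.5 to 11281 UMIs per spot in the cortex of ischemic sections 1 and 2, and from 13081 to 18775 and from 9067 to 14297 in their outer stripes. These are descriptions of 2 sections, with no test, and all CPM by Havcr1 group are without TMM scaling.

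**Figure D4:**
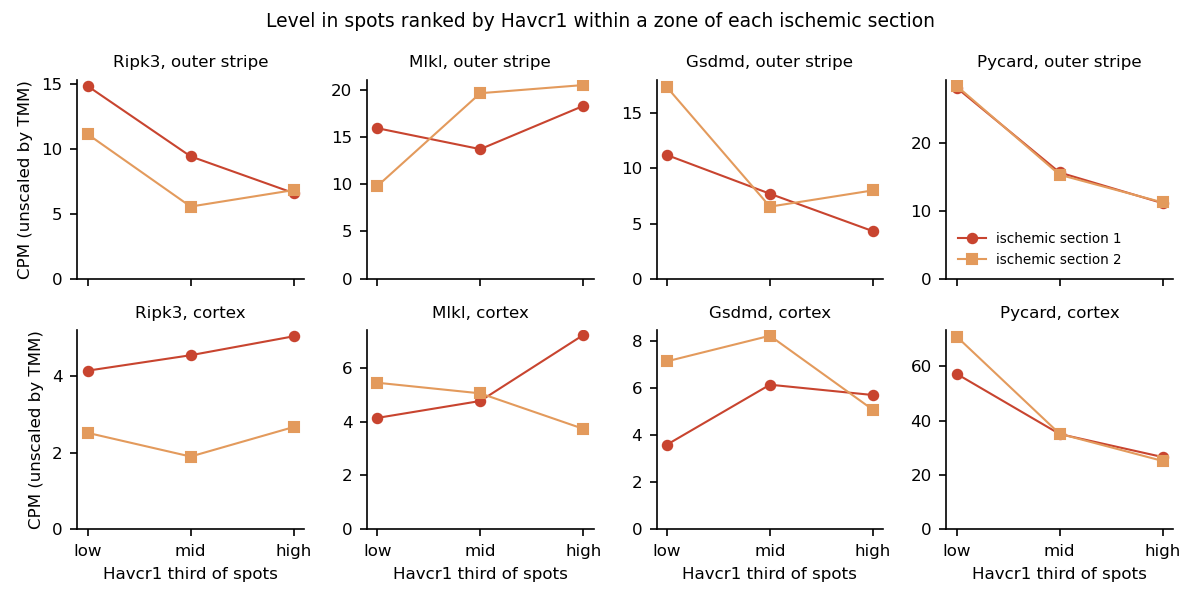
Ripk3, Mlkl, Gsdmd and Pycard in spots of low, middle and high Havcr1 within the outer stripe (upper row) and cortex (lower row) of each ischemic section. Vertical axes give CPM without TMM scaling, from 0, and lines join the groups of 1 section. Pycard falls from 28.2 to 11.2 CPM and from 28.5 to 11.3 CPM in the outer stripe.

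Other genes of these pathways were taken as 6 lists. Upstream of necroptosis, 13 of 23 regulators were higher in whole ischemic sections, 1 was lower and 9 did not pass, with a median log2 fold change of 0.31 beside 0.04 over all genes. Over all genes 60.6% passed, close to the 14 of 23 here, and 31.0% were higher. The largest rises were in Birc3 (1.69 ± 0.21), a ubiquitin ligase that restrains RIPK1, Tnfaip3 (1.19 ± 0.27), the deubiquitinase A20, Tnfrsf1a (1.18 ± 0.11), the main TNF receptor, and Tnf itself (1.16 ± 0.39; edgeR, adjusted p = 0.0278). Tnfrsf1a was at 58.5 and 62.7 CPM in normal and 132 and 143 CPM in ischemic sections. Tnf was low, at most 1.01 CPM, and lost its call with DESeq2 (adjusted p = 0.129) and without normal section 1 or either ischemic section (0.105 to 0.166). Zbp1, a nucleic acid sensor that can engage RIPK3, was lower (-0.76 ± 0.21), a call lost with library size only (adjusted p = 0.194) and without ischemic section 1 (0.0726) or 2 (0.0615). DESeq2 called 8 of the 23 higher, and without either ischemic section 8 were higher and 0 lower.

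Inflammasome sensors were mostly too low to test. Of 13 in the list, 5 passed the filter. Among these 5, 0 rose and 1 fell by edgeR, with 0 rising at an unadjusted p under 0.05 or with DESeq2. Over all genes 31.0% were higher and 29.7% lower. Nlrc4 was at -0.56 ± 0.24, with an unadjusted p of 0.0435, and did not pass (edgeR, adjusted p = 0.0684). With the replicate block, and in spots without a neutrophil count, 2 sensors were lower. Nlrp6, a sensor of epithelia, was at 64.6 and 55.4 CPM in normal and 7.07 and 7.43 CPM in ischemic sections (log2 fold change -3.05 ± 0.12; edgeR, adjusted p = 1.72e-07). Nlrp3, the sensor most studied in sterile injury, had 2, 1, 6 and 11 counts in normal sections 1 and 2 and ischemic sections 1 and 2, and was not tested. In the same order, the untested Naip1 had 3, 4, 10 and 11 counts, Mefv 1, 6, 10 and 9, Naip6 9, 3, 11 and 7 and Nlrp12 0, 0, 3 and 2. The CPM of these untested sensors were higher in both ischemic sections, only just for Naip6. Nlrp1a, Nlrp1b and Nlrp10, also untested, had at most 4 counts per section and overlapped.

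Substrates and executors of pyroptosis went both ways. Among the 11 tested of 14, 2 were higher, 7 lower and 2 not past the threshold, with a median log2 fold change of -0.63, beside 31.0% higher and 29.7% lower over all genes. DESeq2 called 4 lower, and so did the fit without ischemic section 1, with 1 higher, while 3 were lower without ischemic section 2. Il1b, the cytokine gene whose product caspase-1 matures, was at 2.63 and 3.91 CPM in normal and 6.04 and 5.03 CPM in ischemic sections (0.78 ± 0.22, adjusted p = 0.014). In spots without a neutrophil count its log2 fold change was -0.70 (adjusted p = 0.0916), and without ischemic section 1 its adjusted p was 0.0993. Il18 was at 4.26 and 3.91 CPM in normal and 3.21 and 3.32 CPM in ischemic sections and did not pass (-0.33 ± 0.18, adjusted p = 0.147), whereas in spots without a neutrophil count it did, at -0.78 (adjusted p = 0.0153). Gsdma, an epithelial gasdermin, went from 1 and 0 counts in the normal sections to 21 and 19 counts in the ischemic sections, and passed (adjusted p = 0.000291). The lower genes included Gbp5 (-1.60 ± 0.46) and Gbp2 (-1.18 ± 0.19), guanylate-binding proteins of inflammasome responses. Gbp5 had 23, 12, 7 and 4 counts in the 4 sections, and its call was lost with DESeq2 (adjusted p = 0.108) and without normal section 1 or either ischemic section (0.0788 to 0.156). Gsdmc3 (-1.53 ± 0.33) and Gsdmc2 (-1.42 ± 0.37) were lower too, and reads may not tell these near-identical copies apart. The Gsdmc2 call was lost with DESeq2 (adjusted p = 0.0609). Without normal section 2 the values of Gsdmc3 and Gsdmc2 were -1.04 and -0.76, and without pelvis spots -3.23 and -2.76.

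Genes of apoptosis also moved in both directions. Of the 10 apoptotic caspase and apoptosome genes tested, 6 were higher and 2 lower, beside 31.0% and 29.7% of all genes. These counts were 3 and 1 without ischemic section 1, 4 and 0 without ischemic section 2, 5 and 3 without normal section 1 and 6 and 4 without normal section 2. Apaf1, the scaffold of the apoptosome, rose by 1.16 ± 0.18, and Xiap, a caspase inhibitor, by 0.65 ± 0.13. Casp6 and Casp9 were lower, at -0.51 and -0.42. Neither passed with library size only or without ischemic section 2, nor did Casp9 without ischemic section 1 (adjusted p = 0.0548 to 0.444 over these). Of 8 death receptor genes, Tnfrsf10b, the mouse TRAIL receptor, was higher (1.82 ± 0.19), while Tnfsf10, its ligand (-0.60 ± 0.11), and Bid (-0.34 ± 0.09) were lower, both calls being lost with library size only. The Bid call was also lost without ischemic section 1 (adjusted p = 0.0744) or 2 (0.242). Fas was at -0.02 ± 0.12 and did not pass. Of these 8, 2 were higher without normal section 1 and 3 without normal section 2, and 1 was lower without either ischemic section. In the BCL2 family 5 of 16 were higher, near the 31.0% of all genes, led by the pore-former Bak1 (1.56 ± 0.12) and the survival genes Bcl2l1 (1.03 ± 0.11) and Mcl1 (0.81 ± 0.10). There 3 were lower, led by Bik (-0.80 ± 0.10), so that 8 of 16 passed beside 60.6% of all genes. The lower count was 6 without normal section 1 and 1 without either ischemic section.

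**Figure D5:**
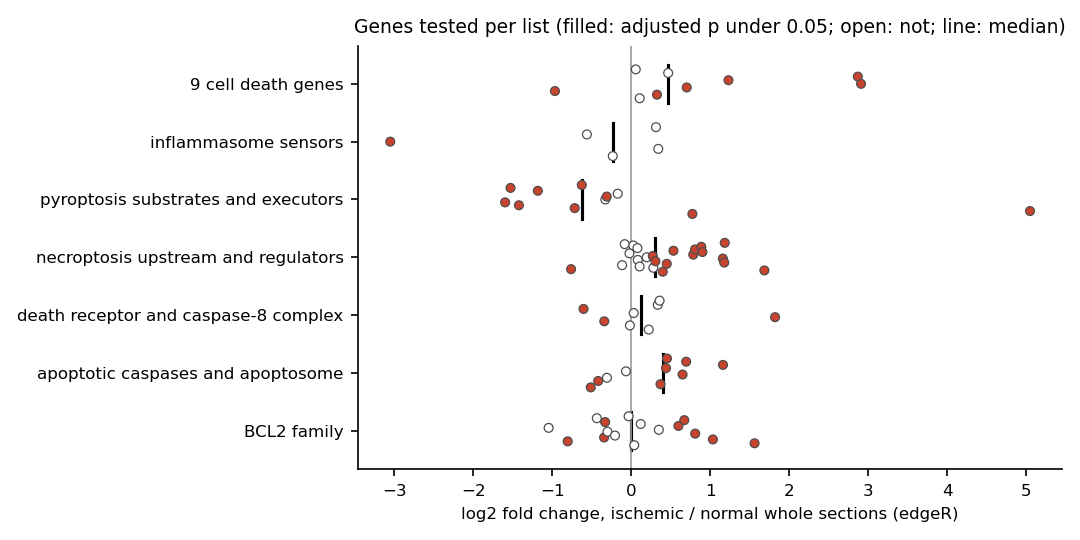
Log2 fold change between ischemic and normal whole sections (horizontal axis) for the 9 genes and for each tested gene of the 6 lists, with filled points past an adjusted p of 0.05 and lines at the medians. The medians run from -0.63 for pyroptosis substrates and executors to 0.47 for the 9 genes, and the fitted value of Gsdma, the point farthest right, is set by a normal total of 1 count.

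Over the 20 sums of 5 zones in 4 sections, the genes whose log2 levels followed each member most closely were found among 14174 genes by Pearson correlation. The sums of 1 section share a library and its depth, so these values are descriptive. Ripk3 was nearest to Adam8 (r = 0.96), Glipr2 (0.96) and Arpc1b (0.96), and Mlkl to Npm1 (0.97), Arpc2 (0.97) and Tpm3 (0.96). Casp4 was nearest to Ptger4 (0.92) and Zfp607b (0.91), and Casp8 to Nek6 (0.91), Rpl22 (0.91) and Tubb4b (0.90). Pycard was nearest to Ptprf (0.93), Edaradd (0.92) and Slc12a2 (0.92), and Gsdmd to Gem (0.92), 4930523C07Rik (0.92) and Slc14a1 (0.91). Casp1 was nearest to Mfng (0.89), Fndc1 (0.89) and Fxyd1 (0.89), and Casp12 to Htra3 (0.90), Bmyc (0.90) and AI463170 (0.88). Ripk1 had the weakest neighbors, Ttc1 (0.81), Invs (0.79) and Cmtm4 (0.79). Among the members themselves, Ripk3 correlated with Mlkl at 0.89 and with Casp4 at 0.83, and Gsdmd with Casp12 at 0.78 and with Casp1 at 0.68.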

How the data were processed

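Per the file headers, Space Ranger 1.3.0 made the deposited matrices, which hold raw UMI counts per gene and tissue spot, and the processing notes name the mm10 build; in these deposited matrices each section stands alone. Counts were summed per section, and per section and zone. A zone was the marker list scoring highest over a spot and its up to 6 neighbors, except pelvis, which took the top 5% of spots with at least 10 pelvis counts. Sums were tested with edgeR 4.0.16 (R 4.3.3; TMM, filterByExpr, quasi-likelihood test, Benjamini-Hochberg over all genes, threshold 0.05) after tests on simulated data, with DESeq2 1.42.0 as an alternative. Other alternatives were RLE factors, library size only, no filter, each section left out, the replicate block, spot subsets and other zone rules. The study gives no test for these counts between conditions. CPM are counts scaled to a fixed library total in each of 4 sections.

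The 9 genes, taken by symbol, and all lists were chosen with earlier results of these data known. Named from each pathway list were up to 4 genes a direction with the largest change past the threshold and no overlap, and always Il1b, Il18, Nlrp3 and Fas; some items are not reported here. Total UMIs of 25957128 to 44528078 per section set the counting precision, and counts of a gene are given where low. A chi-square test over genes found that none of the 6 pairs of sections agreed within sampling noise (chi-square per degree of freedom 41.9 for the normal and 7.32 for the ischemic pair, the lowest). Images and scale factors were not used. Positions are GENCODE vM21 on GRCm38, the assembly of mm10.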

Additional observations from a re-analysis of the deposited data

Results flagged for a closer look

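Mlkl had an effect of ischemia in the outer stripe that exceeded that in the cortex by 2.14 on the log2 scale, and for Pycard this difference was -0.63; both came from the test of the difference itself, and each lost its call in 3 of the 4 fits with a section left out. In the following cases both sections of a condition moved one way in 1 zone and the opposite way in another, and the difference between zones was not tested. Pycard was higher in ischemic cortex (0.77) and inner stripe (0.51) and lower in ischemic inner medulla (-0.75) and pelvis (-0.40). Casp12 was higher in ischemic outer stripe (0.67) and inner stripe (1.80) and lower in ischemic pelvis (-1.21), where it had 5 counts in each ischemic section. The pelvis zone held 106 to 135 spots per section.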

How the results depend on the processing

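Over the alternatives, 906 of 1039 values of the 9 genes kept direction and side of the threshold, 53 lost a call, 29 gained one and 51 changed sign. For 30 other genes of the pathway lists, 318 of 358 values kept both, 33 lost a call, 1 gained one and 6 changed sign. A called value changed sign for Pycard in the inner medulla, at 0.041 with zones from each spot alone, and for Il1b, at -0.70 in spots without a neutrophil count; the other values that changed sign passed in neither setting. With single sections left out, the count of members past the threshold moved in whole sections, the inner medulla, the pelvis and the normal zones against cortex. It also moved for the outer stripe against cortex difference. In some of these fits all member calls were lost in the inner medulla, the pelvis, the normal outer stripe and the difference. The count over all genes moved too, so such changes show nothing particular to the members. In these fits a lone section was assumed to vary like the other groups. With zones from each spot alone the count of members past the threshold was 1 in the pelvis, 2 in the normal inner stripe, 3 in the normal inner medulla and 1 for the difference. It was 2 without the filter in the normal inner stripe, and 1 for the difference with DESeq2, library size only or no section block. The cause was not tested.

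The other log2 values that changed sign were, with zones from each spot alone, Casp12 in cortex (0.20), Ripk1 in the inner medulla (-0.16) and pelvis (0.017), Pycard in the pelvis (0.082), Casp12 in the normal inner stripe (0.50) and Casp1 for the difference (0.018). With DESeq2 and with RLE factors they were Ripk1 in cortex (-0.025 and -0.026) and inner stripe (-0.0098 and -0.012) and Gsdmd in cortex (-0.050 and -0.043). With library size only they were Casp12 in cortex (0.15), Mlkl in the normal inner stripe (0.19), Casp8 in the normal inner medulla (0.22) and Fas (0.24). With only spots of well-separated zone scores they were Casp12 in cortex (0.044), Ripk1 in the inner stripe (-0.082) and Mlkl in the normal inner medulla (-0.53), which was also at -0.022 with no filter and -0.017 with no section block. Fas was at 0.0081 with no filter and 0.021 in spots without a neutrophil count.

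With single sections left out, values on both sides of 0 were found in whole sections for Ripk1 (-0.046 to 0.15), Gsdmd (-0.16 to 0.39) and Fas (-0.14 to 0.088). In cortex they were found for Ripk1 (-0.036 to 0.16), Gsdmd (-0.30 to 0.26), Casp1 (-1.67 to 0.37) and Casp12 (-0.39 to 0.19), and in the outer stripe for Gsdmd (-0.11 to 0.38) and Pycard (-0.16 to 0.30). In the inner stripe they were found for Ripk1 (-0.13 to 0.29), Gsdmd (-0.40 to 0.82) and Casp1 (-2.03 to 0.11), in the inner medulla for Ripk1 (-0.040 to 0.35) and in the pelvis for Ripk1 (-0.96 to 0.13) and Casp4 (-0.29 to 1.27). For normal zones against cortex these were Mlkl (-1.39 to 1.04), Casp1 (-0.37 to 1.33) and Casp12 (-0.23 to 0.0030) in the outer stripe, Mlkl (-0.26 to 0.53), Casp1 (-0.16 to 1.69) and Casp8 (-0.81 to 0.028) in the inner stripe, and Mlkl (-1.12 to 1.25) and Casp8 (-0.57 to 0.046) in the inner medulla. For the difference they were Ripk1 (-0.016 to 0.093) and Casp1 (-1.56 to 0.098).

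Among all genes, the calls in the inner medulla went from 4978 to 3077 with a separate fit, in the pelvis from 3576 to 2248 with zones from each spot alone, in the normal outer stripe from 3236 to 2134 and for the difference from 3049 to 1665 with no section block. Leaving out an ischemic section gave 2508 to 2611 calls in cortex (5689 with all), 4220 to 4224 in the inner stripe (6827), 2549 to 2729 in the inner medulla, 1099 to 1236 in the pelvis, 2150 to 2151 in the normal outer stripe and 740 to 878 for the difference. Library size only moved the share of calls that were higher from 50.4% to 67.6% in cortex, 48.2% to 69.3% in the outer stripe, 46.1% to 66.7% in the inner stripe and 39.6% to 50.5% in the inner medulla. For normal zones it moved from 54.9% to 31.6% in the outer stripe, 48.7% to 76.2% in the inner stripe and 48.8% to 78.1% in the inner medulla, and for the difference from 37.5% to 61.5%.

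Sections of the same number deviated together only weakly (r = 0.22 across 13814 genes, 2 pairs), so the numbers were not taken to pair them. With the replicate block 6 members passed in whole sections, 5 in the inner stripe and as many as without it in the other zones. Members had 131 to 3291 counts in all sections, and changes of Casp1, Casp12 and Casp4 within single zones rest on few counts.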
